A study of Arabidopsis thaliana with 6 samples.

Results

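The 10 genes described here are regulators of vascular patterning, the process that lays out xylem, phloem and the dividing cells between them in the root's central cylinder. They were chosen by locus as 5 genes of the TMO and LHW group and the 5 genes of the class III homeodomain leucine zipper family, HD-ZIP III. The first group was TMO5 (AT3G25710), T5L1 (AT1G68810), LHW (AT2G27230), TMO6 (AT5G60200) and TMO7 (AT1G74500). The second was PHB (AT2G34710), PHV (AT1G30490), REV (AT5G60690), CNA (AT1G52150) and ATHB8 (AT4G32880). All 10 were on the array, each with 1 probe set, among 22746 probe sets tested. No member's probe set was of the kind marked as matching several transcripts.

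Root apices of wild-type Arabidopsis thaliana, accession Col-0, were cut into 2 pieces from 8-day-old seedlings grown on upright plates under constant light. Zone I was the terminal 0.5 mm, which holds the cap and the dividing cells, and zone II was a 1.5 mm section with the elongation and root hair zones. Each zone had 3 arrays, hybridised with cDNA amplified from total RNA. All samples shared genotype and age, carried no treatment beyond growth, and had been kept in RNAlater. How many roots made up a sample is not given in the sources used here, and the labels do not state separate cultures for the 3 arrays. The p-values therefore cover only the spread among arrays, which may be technical.

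As background, the auxin response factor MONOPTEROS switches on the TARGET OF MONOPTEROS (TMO) genes. The basic helix-loop-helix (bHLH) proteins TMO5 and T5L1 pair with LHW, also a bHLH protein, and the pair promotes divisions that widen the vascular cylinder, in part through local cytokinin synthesis. HD-ZIP III factors set xylem cell identity in the root by their dose, which is held down by microRNAs that come from the endodermis. ATHB8 is also widely used as a marker of procambium, the tissue that gives rise to vascular cells.

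The 2 pieces carried the markers of their labels. The 4 measured markers of dividing cells were all higher in zone I, with a summed signal of 2355 to 4084 on zone I arrays and 71.0 to 389.7 on zone II arrays, the highest of these on zone II array 1. The 5 root hair and 5 endodermis markers were all higher in zone II. Of the xylem markers 8 of 10 were higher in zone II and none in zone I, with summed signals of 378.1 to 1302 on zone I arrays and 10604 to 15362 on zone II arrays. In zone I, 6 of these 10 stayed under a signal of 64 on every array, a level taken here as dim. Phloem markers were higher in zone II in 5 of 6, with sums of 592.5 to 639.4 against 2704 to 3577. Of 4 root cap markers, 3 were higher in zone I and none in zone II. Of 3 shoot markers, 2 were higher in zone II, with sums of 250.8 to 499.6 against 1069 to 3479. These pieces are mixtures of tissues, so fewer cells of a type and less RNA per cell cannot be told apart for any gene below.

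Of the 10 genes, 4 were higher in zone II (T5L1, REV, CNA and ATHB8), 2 were higher in zone I (LHW and TMO7), and 4 did not pass (TMO5, TMO6, PHB and PHV), at an adjusted p under 0.05 in limma. Over all probe sets 37.9% passed, with 18.1% toward zone II and 19.8% toward zone I. The arrays of the zones did not overlap for 6 genes with zone II above zone I (T5L1, TMO6, PHV, REV, CNA and ATHB8) and for 2 with zone I above zone II (LHW and TMO7). Over all probe sets the arrays did not overlap for 49.9%, split into 23.5% with zone II above and 26.4% with zone I above. With 64 added to every signal 7 of the 10 passed, TMO6 besides the 6, against 40.3% of all probe sets. The median log2 difference of the 10 genes, zone II minus zone I, was 0.92, and that of all probe sets was -0.04.

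**Figure D1:**
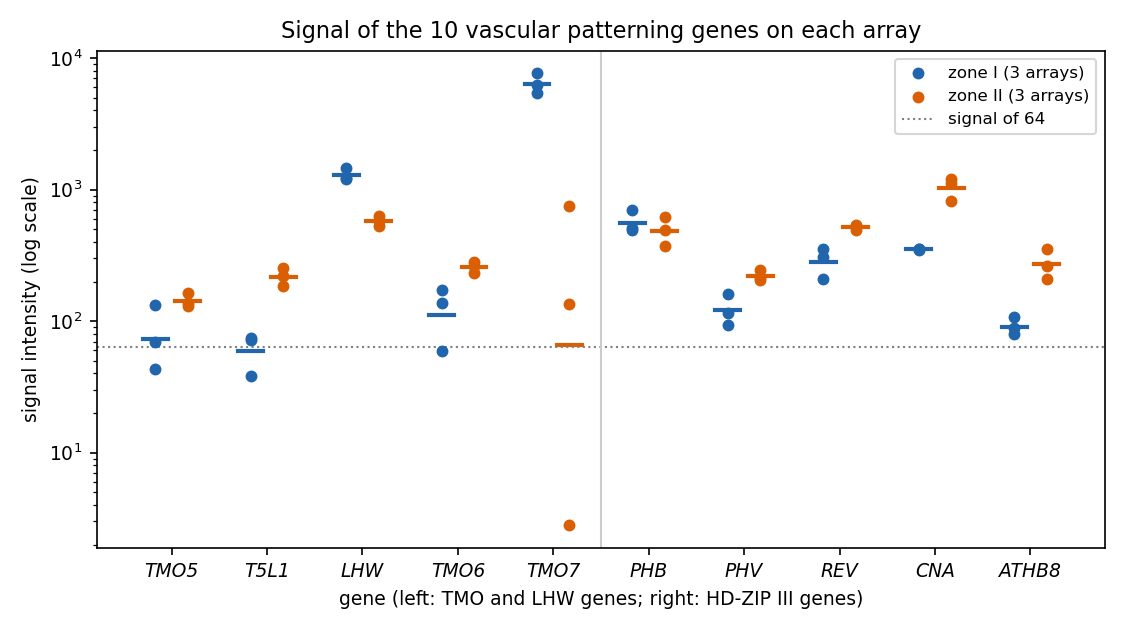
Signal intensity (log scale) of the 10 genes on each of the 6 arrays, with points for arrays and bars for the geometric mean of 3 arrays per zone; probe sets differ in response, so heights are not comparable between genes. TMO7 spans 2.80 to 747.0 on the zone II arrays, whereas its zone I arrays sit between 5469 and 7661.

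TMO7 encodes a small bHLH protein that lacks a DNA-binding region and, in the embryo, moves from the cell that makes it to its neighbour. Its signal was 6267, 5469 and 7661 on the 3 zone I arrays and 2.80, 134.8 and 747.0 on the 3 zone II arrays. Every zone I array was thus far above every zone II array, while the zone II arrays themselves were widely spread. The log2 difference was -6.61 ± 1.47 (SE, n = 3 per zone; limma adjusted p = 0.00429). Its 95% interval ran from -9.85 to -3.37. Zone II array 1, with the signal of 2.80, set much of that size, and without it the difference was -4.33 (adjusted p = 0.000139). With 64 added to every signal it was -4.87. With no intensity trend in the variance the adjusted p was 0.0556. The dividing cell markers were mixed on zone II array 1. Their sum was 389.7 there, against 92.9 and 71.0 on zone II arrays 2 and 3. Most of the 389.7 came from KN, at 337.8 on array 1 and 3.10 and 22.98 on arrays 2 and 3. PLT1 and PLT2 were, like TMO7, lowest on array 1 among the zone II arrays, at 2.27 and 1.38. CYCB1;1 was at 48.3, 60.1 and 26.6 on zone II arrays 1, 2 and 3. The part of these markers in the TMO7 result was not tested.

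Only 0.0879% of all probe sets had a lower difference than TMO7, that is, one further toward zone I. With array 1 of zone II left out this share was 0.945%. Among the 59 probe sets that the deposited annotation text calls bHLH, 3 of them among the 10 genes, TMO7 had the lowest difference with all 6 arrays. This family was picked by annotation text after the values were seen, and it does not include LHW, whose annotation lacks that term. The next lowest in the family was AT4G37850 at -3.65, from a zone I signal of 33.7.

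LHW, the partner of TMO5 and its relatives, was also higher in zone I, with a narrow spread. Its signal was 1213, 1466 and 1220.3 in zone I and 625.6, 578.1 and 533.5 in zone II. All zone I arrays lay far above all zone II arrays, and each zone was tight. The log2 difference was -1.16 ± 0.19 (SE, n = 3 per zone; limma adjusted p = 0.000718), a 2.24-fold difference with a 95% interval from 1.66 to 3.02. It passed under all 14 alternative settings, between -1.27 and -1.07.

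The bHLH partners of LHW went the other way or did not pass. T5L1, the close relative of TMO5, had signals of 72.2, 38.5 and 74.2 in zone I and 219.4, 184.1 and 252.5 in zone II. Every zone II array was above every zone I array. T5L1 differed by 1.88 ± 0.47 on the log2 scale (SE, n = 3 per zone; limma adjusted p = 0.00896), or 1.18 with 64 added, and it passed under all 14 alternatives.

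TMO5 itself had signals of 132.1, 69.5 and 43.1 in zone I and 136.4, 162.8 and 129.3 in zone II. The zones overlapped, because zone I array 1 lay above zone II array 3. Its log2 difference of 0.95 ± 0.54 (SE, n = 3 per zone) had a 95% interval from -0.23 to 2.14 and a limma adjusted p of 0.198. With 64 added it was 0.55.

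TMO6 encodes a Dof zinc finger transcription factor. Its signal was 59.2, 173.6 and 136.7 in zone I and 281.6, 231.5 and 260.3 in zone II. The 3 zone II arrays lay close together and above all zone I arrays, and zone I array 1 was the lowest. The log2 difference was 1.20 ± 0.45 (SE, n = 3 per zone), with a limma adjusted p of 0.0587, just short of the threshold. It passed with 64 added (0.83, adjusted p = 0.0463), when dim probe sets were left out (adjusted p = 0.0383) and with array 2 of zone I left out (1.51, adjusted p = 0.0404). Leaving out array 1 of zone I gave 0.74.

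**Figure D2:**
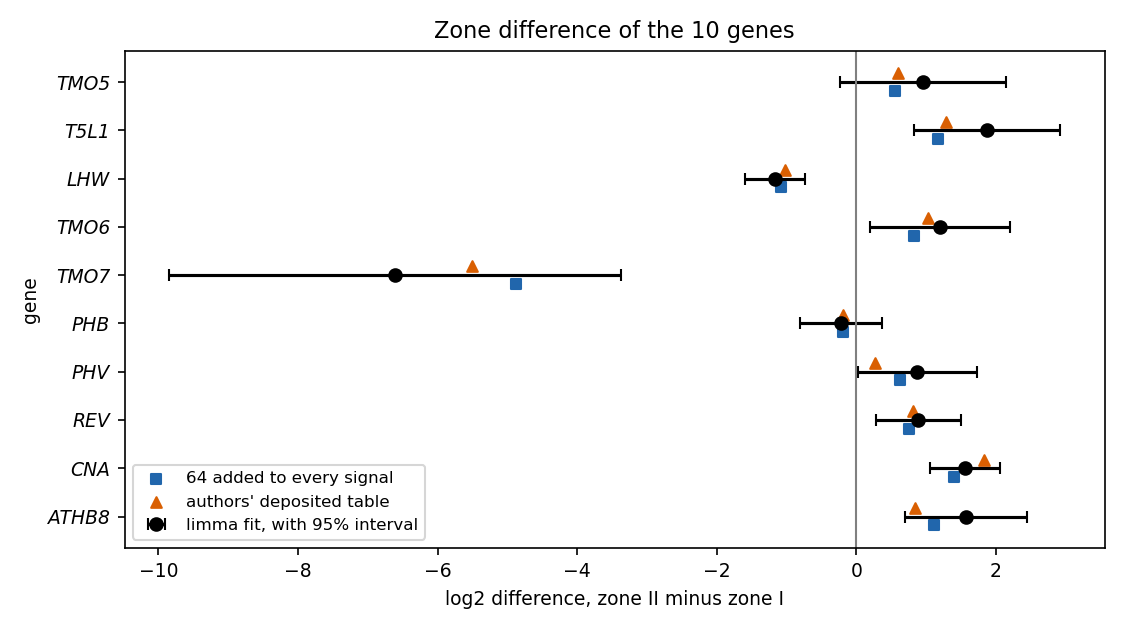
Log2 difference of each gene, zone II minus zone I, from the limma fit (circles, bars for the 95% interval), from the same fit with 64 added to every signal (squares) and from the authors' deposited table (triangles). The 3 values have the same sign for every gene, and the intervals of TMO5 and PHB cross 0.

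Among the HD-ZIP III genes 3 of 5 were higher in zone II, none was higher in zone I, and the family median was 0.89, where 18.1% of all probe sets were higher in zone II. The call of REV was lost in 5 of 14 alternatives. CNA, also known as ATHB15 and expressed in developing vascular tissue, had signals of 351.9, 349.1 and 354.2 in zone I and 1130.0, 1196 and 826.2 in zone II. The zone I arrays were nearly equal, and all zone II arrays lay more than 2 times higher. On the log2 scale CNA differed by 1.56 ± 0.23 (SE, n = 3 per zone; limma adjusted p = 0.000272), a 2.95-fold difference with a 95% interval from 2.09 to 4.17.

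ATHB8, the procambium marker, differed by nearly the same amount. Its signal was 88.2, 79.2 and 107.2 in zone I and 209.0, 356.7 and 263.4 in zone II, with no overlap. On the log2 scale ATHB8 differed by 1.57 ± 0.39 (SE, n = 3 per zone; limma adjusted p = 0.00858), or 1.11 with 64 added. CNA and ATHB8 both passed under all 14 alternatives.

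REV is best known for its part in the vascular bundles and lateral meristems of the shoot, and it also acts in root xylem. Its signal was 350.6, 207.6 and 308.6 in zone I and 539.6, 497.4 and 528.2 in zone II, so the zones did not overlap and zone II was tight. The log2 difference was 0.89 ± 0.28 (SE, n = 3 per zone; limma adjusted p = 0.0259). This call was close to the threshold. It was lost with no intensity trend (adjusted p = 0.0656) and with array 2 of zone I left out (0.66, adjusted p = 0.0921). Leaving out array 1, 2 or 3 of zone II gave 0.86, 0.92 and 0.88, with adjusted p-values of 0.0532, 0.0551 and 0.0531.

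PHB and PHV are close relatives that act together in leaf polarity and, in the root, in xylem patterning. PHB had signals of 511.3, 496.6 and 695.5 in zone I and 618.0, 488.9 and 371.3 in zone II. The zones overlapped widely, and the log2 difference of -0.22 ± 0.27 (SE, n = 3 per zone) had a 95% interval from -0.81 to 0.37 and a limma adjusted p of 0.578. PHV had signals of 93.5, 161.9 and 115.5 in zone I and 205.6, 246.1 and 213.9 in zone II. Its zones did not overlap, yet the difference of 0.88 ± 0.38 (SE, n = 3 per zone) did not pass (limma adjusted p = 0.0984), nor did it under any of the 14 alternatives.

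The differences of related genes were set against each other through their log2 ratio within each array, in 5 pairs, with an exact two-sided permutation test over the 6 arrays whose smallest possible p is 0.1. The zone difference of PHB lay below that of PHV by -1.09 ± 0.39 (SE), and that of REV lay above that of PHB by 1.104 ± 0.31. In both pairs the ratios of the zones did not overlap, with an exact p of 0.1, or 0.167 after adjustment over the 5 pairs. The same held for TMO5 over LHW, whose ratio differed by 2.12 ± 0.50 on the log2 scale (exact p = 0.1, adjusted 0.167). For PHB over PHV the exact permutation p rose to 0.2 with 64 added to every signal and with quantile normalization. CNA and ATHB8 differed by -0.01 ± 0.28 in their zone difference (exact p = 1), and TMO5 and T5L1 by -0.92 ± 0.60 (exact p = 0.3, adjusted 0.375), with overlapping ratios in both pairs. No pair could pass a threshold of 0.05 in this permutation test, and no other test of the pairs was run.

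**Figure D3:**
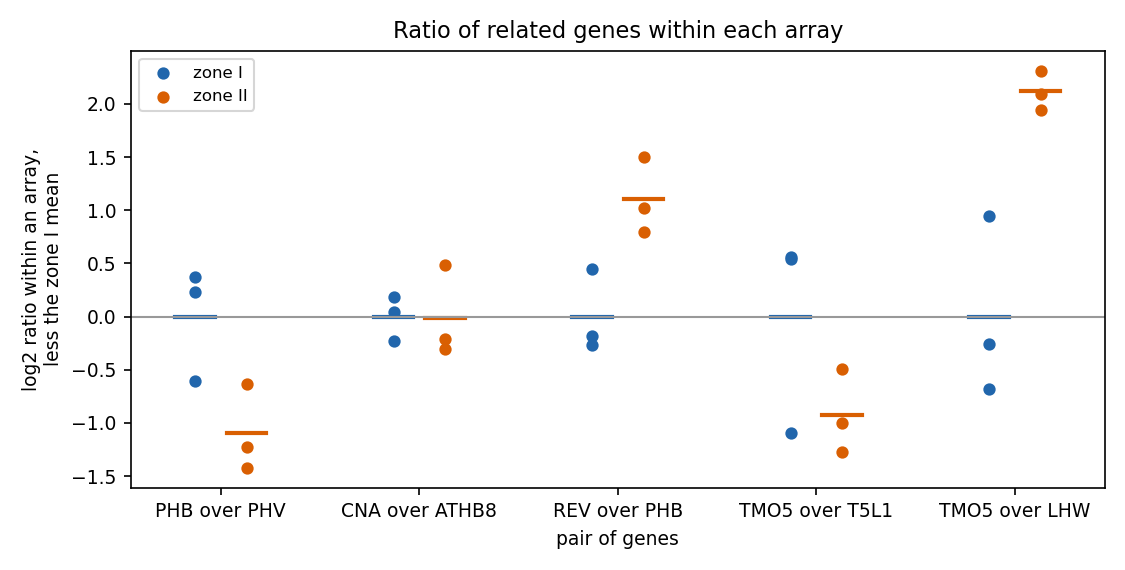
Log2 ratio of 2 related genes within each array, less the zone I mean of that pair; points are arrays and bars are means of 3 arrays. The zones do not overlap for PHB over PHV, REV over PHB and TMO5 over LHW.

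The authors' deposited table gives a second quantification of the zone comparison. Its log2 fold changes had a correlation of 0.870 with the differences used here, across probe sets, which are not independent replicates, and its direction was taken from that. The share of all probe sets with an adjusted p under 0.05 in the authors' deposited table was 45.6%. Of the 10 genes it called 7, namely the 6 called here and TMO6, which stood at 1.03 with an adjusted p of 0.000823. In the authors' deposited table TMO7 stood at -5.50, CNA at 1.83, T5L1 at 1.29 and LHW at -1.03. PHV stood at 0.27 and ATHB8 at 0.84 in the authors' deposited table, both less than in the signals analysed here.

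Of 18 listed genes that work with TMO5 and LHW, 14 were measured, 6 of them rising toward zone II and 3 toward zone I, with a median log2 difference of 0.03. These are 42.9% and 21.4% of the measured members, against 18.1% and 19.8% of all probe sets. The genes named from this list and from the next ones followed a fixed rule on size. Further members, called or not, were added after their values were seen. LOG4, the cytokinin-activating enzyme that TMO5 and LHW switch on, was higher in zone I, with mean signals of 216.3 and 22.2 (-3.28 ± 0.60, SE, n = 3 per zone, limma adjusted p = 0.00126). AHP6, an inhibitor of cytokinin signalling in protoxylem, lay at -3.14 (adjusted p = 0.0137), a call lost on leaving out array 2 of zone I, or array 1 of both zones together. ACL5, which makes thermospermine, lay at -3.53 and did not pass with array 2 of zone I left out (adjusted p = 0.0512). With 64 added, LOG4, AHP6 and ACL5 still passed but lay at -1.69, -1.16 and -1.69, as their zone II mean signals were dim.

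On the side of zone II, the largest difference in this list was that of AT5G50010, annotated with a conserved upstream open reading frame, at 3.17 ± 0.36 (SE, n = 3 per zone, limma adjusted p = 5.12e-05). SAC51, a bHLH gene that responds to thermospermine, lay at 1.58, the cytokinin receptor gene WOL at 1.24, and BDL, the auxin-sensitive inhibitor of MONOPTEROS, at 1.20. The Dof gene AT2G28510 lay at 0.78. AT5G09460 lay at 0.94 with an adjusted p of 0.0490 and lost its call in 9 of 14 alternatives. WOL and AT2G28510 lost theirs without the intensity trend (adjusted p = 0.0550 and 0.0521). MONOPTEROS itself (MP) had mean signals of 233.9 and 26.1 in zones I and II, and its difference of -3.16 ± 1.31 (SE) did not pass (adjusted p = 0.0822). Its signal was 2.09, 79.4 and 107.3 on the zone II arrays and 81.2 on zone I array 1, so the zones overlapped. With 64 added the difference was -1.42. MP passed under 4 of 14 alternatives. Of the remaining measured genes, LOG3 and LHL1 did not pass (0.45 and -2.02, limma adjusted p = 0.826 and 0.141). Nor did BGLU44 and AT1G29950 (-1.64 and -0.38, adjusted p = 0.254 and 0.178). LOG3 changed sign with 64 added.

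Of the other listed Dof factors, a family whose members act with TMO6 in the vascular cylinder, 2 of 6 were higher in zone II and none was higher in zone I, with a median of 0.58. Among the 26 genes besides TMO6 that the annotation text calls Dof, which share members with this list, 8 were higher in zone II and none in zone I, and over all probe sets 18.1% and 19.8% were. HCA2, which promotes the activity of the cambium, lay at 2.31 (limma adjusted p = 0.0334) from mean signals of 18.5 and 91.6, or at 0.90 with 64 added. OBP2 lay at 1.05 (adjusted p = 0.0194). DOF2.4 and AT5G02460, also known as PEAR1 and PEAR2, leaned toward zone I and did not pass (-0.54 and -0.86, adjusted p = 0.615 and 0.592). AT5G02460 changed sign with array 3 of zone II left out. DOF6 and AT2G28810, at 0.37 and 0.79, did not pass either (adjusted p = 0.510 and 0.0660). Neither HCA2 nor OBP2 passed when array 1 or 2 of zone I, or array 2 or 3 of zone II, was left out, and no member of the list passed in these 4 cases. HCA2 also did not pass with the replicate block, with quantile normalization, or with array 1 of both zones left out.

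TMO7 belongs to the PRE family of bHLH proteins without DNA-binding regions, which bind and inactivate growth-repressing proteins of related structure. Of the list of its relatives and partners, 8 of 11 were measured, and 4 were higher in zone II and none in zone I, with a median of 0.95, where 18.1% and 19.8% of all probe sets passed. IBH1 and the AIF proteins are such growth repressors. IBH1 had mean signals of 63.9 and 667.1 in zones I and II (3.38 ± 0.46, SE, n = 3 per zone, limma adjusted p = 0.000167). AIF1 lay at 2.03, AIF2 at 1.87 and AIF3 at 0.80, with adjusted p-values of 0.00308, 0.000491 and 0.0327. AIF4 and IBL1, at -0.14 and 0.78, did not pass (adjusted p = 0.774 and 0.476). IBL1 had signals of 168.2, 1532 and 2427 on the zone II arrays. It passed under 2 of 14 alternatives, with array 1 of zone II left out (1.95) and with array 1 of both zones left out. AIF3 did not pass with array 2 or 3 of either zone left out, with no intensity trend, or with equal medians. The PRE genes measured besides TMO7 were PRE1, with mean signals of 10.1 and 21.7, and BNQ2, with 154.1 and 41.5 (-1.89, adjusted p = 0.0569). BNQ2 passed under 8 of 14 alternatives.

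**Figure D4:**
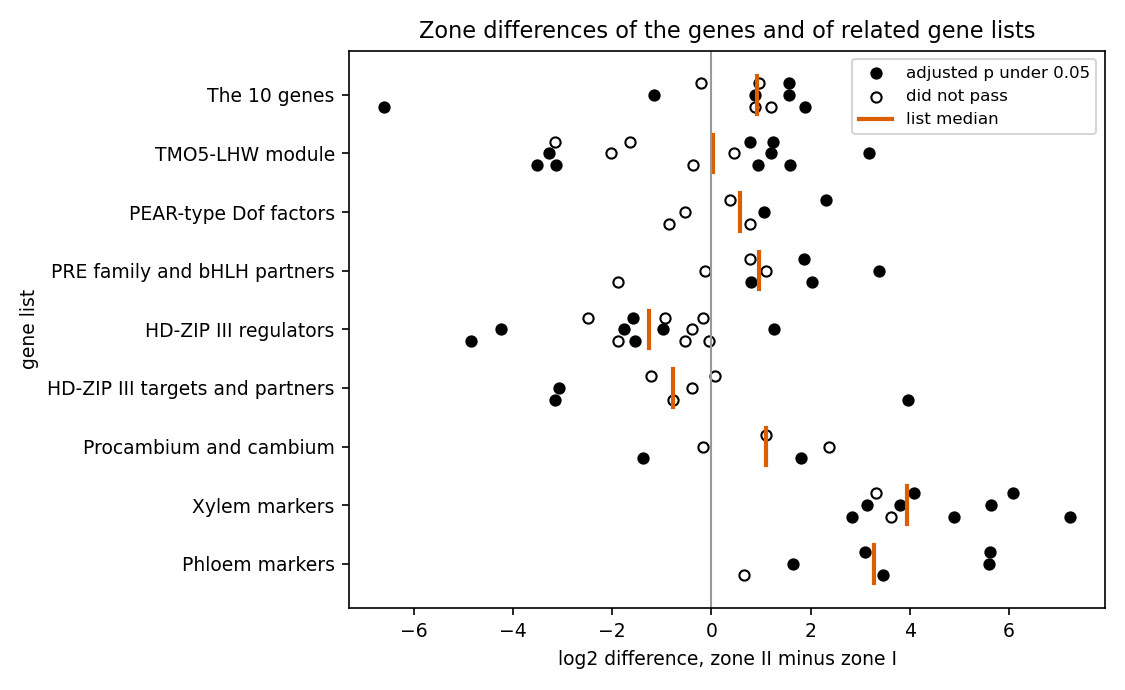
Log2 difference of each measured gene, zone II minus zone I, for the 10 genes and for related lists; filled points passed at an adjusted p under 0.05 and orange bars are list medians. Xylem and phloem markers lie to the right of 0 in all 16 measured genes, and regulators of HD-ZIP III lie to the left in 13 of 14. Not all of these passed. Of all 22746 probe sets, 11106 lie to the right of 0 and 11640 to the left.

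Genes that act on the HD-ZIP III family lay mostly toward zone I. Of 14 measured, 6 passed toward zone I and 1 toward zone II, with a median of -1.27. Against this, 19.8% of all probe sets passed toward zone I and 18.1% toward zone II. Of the KANADI factors, which oppose HD-ZIP III genes in organ polarity, 2 of 4 passed. KAN4 had mean signals of 908.4 and 31.6 in zones I and II (-4.85 ± 0.60, SE, n = 3 per zone, limma adjusted p = 9.43e-05) and KAN1 lay at -4.25 (adjusted p = 0.000758). With 64 added, KAN4 and KAN1 still passed but lay at -3.25 and -2.37, as their zone II mean signals were dim. KAN2 and KAN3, at -1.87 and -2.49, did not pass (adjusted p = 0.123 and 0.166). Of 7 listed genes of the microRNA pathway, 3 passed toward zone I, 1 toward zone II and 3 did not pass. AGO10, which keeps the microRNAs away from HD-ZIP III transcripts, lay at -1.77, and the processing factors HYL1 and SE lay at -1.58 and -0.98. DCL1, the enzyme that cuts the microRNA precursors, was higher in zone II at 1.26 ± 0.20 (SE, adjusted p = 0.000474). AGO1, HEN1 and HST, which load, stabilise and export microRNAs, lay at -0.16, -0.94 and -0.06 (adjusted p = 0.493, 0.0684 and 0.933). CALS3, a callose synthase that narrows the cell-to-cell channels used by these microRNAs, lay at -1.55.

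SHR and SCR, which switch on those microRNAs in the endodermis, did not pass (-0.39 and -0.53, limma adjusted p = 0.310 and 0.117). AGO10 did not pass with array 1 or 3 of zone I left out, or with array 1 of both zones left out together. SE, at an adjusted p of 0.0324, did not pass with any 1 array of zone I or with array 1 or 3 of zone II left out. Nor did SE pass with array 1 of both zones left out together, or with no intensity trend.

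Of 9 listed targets and protein partners of HD-ZIP III, 7 were measured, 2 passing toward zone I and 1 toward zone II, with a median of -0.78. These shares, 28.6% and 14.3%, lie near those of all probe sets, 19.8% and 18.1%. ZPR1 and ZPR3, small leucine zipper proteins that are induced by HD-ZIP III factors and block them, did not pass (-0.78 and -1.23, limma adjusted p = 0.152 and 0.210). HB-2, an HD-ZIP II factor, had mean signals of 862.0 and 97.2 (-3.15 ± 0.37, SE, n = 3 per zone, adjusted p = 7.07e-05). HB4 and HAT3, from the same list, did not pass (0.06 and -0.40, adjusted p = 0.938 and 0.640). The auxin synthesis genes TAA1 and YUC5 went opposite ways, at -3.08 and 3.96, with adjusted p-values of 0.0260 and 0.00487. YUC5 was at 13.3 in zone I and lay at 1.69 with 64 added. TAA1 had signals of 7.17, 102.0 and 188.9 on the zone II arrays and lay at -1.80 with 64 added. TAA1 did not pass with any 1 array of zone I left out, or with no intensity trend.

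From the short list of procambium and cambium genes, PXY, the receptor kinase that maintains cambium, was higher in zone II, with mean signals of 69.6 and 244.3 in zones I and II (1.81 ± 0.53, SE, n = 3 per zone, limma adjusted p = 0.0197). PXY did not pass with array 2 of zone I or array 1 of zone II left out. WOX14, CLE41 and CLE44 did not pass (1.102, 2.36 and -0.18).

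The genes whose pattern lay nearest to the largest differences were found by the root mean square distance between log2 signals over the 6 arrays, each gene centred on its own mean. For T5L1 they were AT5G57830 at 0.0596, the MYB family gene AT3G24120 at 0.0886 and the kinase gene NEK2 at 0.111. For TMO7 they lay further off, with BARD1 at 0.863, AT5G66590 at 1.26 and AT4G14695 at 1.33. BARD1, a gene of DNA repair, had mean signals of 1055 and 20.8 in zones I and II.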

How the data were processed

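The authors deposited signal intensity values for 22810 probe sets on 6 arrays, made with MAS5 and Affymetrix Expression Console, per the submitters' processing notes, with settings not given in the sources used here. Each array's deposited intensity values had a mean of 500 once 2% of probe sets at either end were trimmed, so they had been scaled. The authors' deposited table of their own comparison holds log2 fold changes, p-values and adjusted p-values. Its test and direction are not stated.

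Signals were log2 transformed without an offset, and the 64 control probe sets were left out. The zones were compared in limma 3.58.1 (R 4.3.3) with an intensity trend and no block, and p-values were adjusted by Benjamini-Hochberg across every probe set tested. Mean signals are geometric. Exact permutation tests used SciPy 1.17.1. Genes were matched by locus to the deposited table and to TAIR10.1 symbols. The arrays' number limits the precision.

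The genes and lists were chosen with earlier results of these data known. All 10 genes are named. Each list gave its 3 largest called differences, or the largest difference where none passed, and any called member that went most strongly the other way. Further members, called or not, were added outside this rule after their values were seen. Nearest patterns were sought for the called gene with the largest difference in each direction, among probe sets of 1 gene with above-median signal. Alternatives were a replicate block, an offset of 16 or 64, quantile normalization, equal medians, leaving out probe sets below percentile 40 of mean signal, no intensity trend, and leaving out each array or the first of both zones. A called member of the procambium list is not reported here.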

Additional observations from a re-analysis of the deposited data

How the results depend on the processing

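No gene among the 10 changed direction under the 14 alternatives. TMO6, which did not pass, passed with 64 added (0.83), above the 40th percentile of mean signal (1.20) and at one of the arrays left out, and the cause was not tested. TMO7 (-6.61) and REV (0.89) lost their calls without the intensity trend. With each array left out in turn, TMO6 ran from 0.74 to 1.51 and REV from 0.66 to 1.04, where fewer arrays were fitted. The number of vascular Dof factors called, 2 in the report, was 1 with the replicate block and 1 with quantile normalization, HCA2 losing its call in both, and ran from 0 to 3 with an array left out. For the procambium list, 2 of 5 measured genes were called in the main fit, near the 37.9% of all probe sets. That count ran from 1 to 2 with an array left out. The difference between CNA and ATHB8 in their zone effect, -0.01 in the report and never past its test, changed sign to 0.10 with 16 added, 0.30 with 64 added and 0.079 with quantile normalization, and ran from -0.26 to 0.14 with an array left out. The replicate block was checked because the zones share replicate numbers. Same-numbered arrays deviated together with correlations of 0.00406, 0.0360 and 0.0373. Arrays with unlike numbers had lower correlations, from -0.0376 to 0.00261. The main fit had no block because the labels do not say that a replicate number marks a shared batch. With the block, 6 of the 10 genes were called, as without it, and over all probe sets 8623 became 8445. Signals under 64, which 35.2% to 39.6% of probe sets had per array, limit what can be said of dim genes.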
